A study of Mus musculus with 37 samples.

Results

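Normal mouse embryos were compared across the first division, from zygotes in M phase to 2-cell embryos. The samples were taken by their labels from the first version of a single-colour bead array. The 2-cell stage control embryos (2 samples, replicates 22 and 23) were set against M phase zygotes (3 samples, replicates 24, 25 and 26), and repeat hybridizations of the same RNA were left out. These 5 samples are 5 of the 37 arrays of the series, which otherwise holds oocytes, other embryos, fibroblasts and embryos after nuclear transfer. Embryos were cultured in KSOM, a medium for mouse embryos, and the label of 2-cell control 22 places it 22 to 24 h after the first mitosis. The labels name no mutation, transgene or drug for either group. Strain, sex, age of the females, the time at which the M-phase zygotes were taken and the number of embryos on an array were not given in the sources used here. Levels in 3 interphase zygotes (25 h after hCG, the hormone that triggers ovulation, where a time is given) and in 2 samples of 1-cell embryos kept from cleaving until the time of the 2-cell stage are set beside the results.

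A fertilized mouse egg begins its development on RNA and protein that the oocyte made while it grew, and its own genome is nearly silent. Around the first division maternal RNA is destroyed, with deadenylation by the CCR4-NOT complex as a main step, and the 2-cell embryo begins the major wave of transcription from the embryonic genome. Genes read in this wave include regulators specific to the stage and the machinery that makes ribosomes, spliceosomes and RNA polymerases. The labelling kit primes on poly(A) tails, so that a change in tail length and a change in the amount of RNA cannot be told apart. In these bulk samples, fewer cells of a type and less RNA per cell cannot be told apart either.

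Levels are normalized log2 intensities, on which the dimmest signal called detected lay between 4.58 and 4.73 on the 5 arrays. Between 36.8 and 40.9% of probes were detected. Correlation over all probes was 0.963 between the 2-cell controls, 0.976 to 0.989 among the M-phase zygotes and 0.723 to 0.753 between the groups. Both 2-cell controls lay on the slide of M-phase zygote 24, and zygotes 25 and 26 lay on a further slide each. M-phase zygote 26 stood apart from the other M-phase zygotes. It was more than 1 log2 above both of them for 159 genes, against 27 such genes for zygote 24 and 1 for zygote 25. The largest excesses were in S100a6, Slc2a3, Rhox5, Wfdc2, Nanog and Cd81, and their part in the results was not tested. Among the genes named here whose difference or adjusted p is given, zygote 26 lay over 1 log2 above both other zygotes for 22; 18 of these passed as higher in 2-cell controls, and all 18 passed as higher without it too. Values without this library are given for some of the genes and lists below that it moved.

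The labelled stages were first checked against marker genes. Pramel7, a PRAME-family gene expressed in naive pluripotent cells, lay at 11.15 and 11.00 in 2-cell controls 22 and 23 and at 4.37, 4.40 and 4.31 in M-phase zygotes 24, 25 and 26. It was detected on both 2-cell arrays and on no zygote array, and was at least 88.6-fold higher in 2-cell controls (adjusted p = 1.01e-07, limma, Benjamini-Hochberg over all genes). Klf5, a zinc-finger factor of the first cell lineages, lay at 10.27 and 10.81 against 4.79, 5.08 and 6.73, a log2 difference of 5.0 ± 0.48 (SE, adjusted p = 2.25e-06). The groups were well apart, although zygote 26 lay above the other zygotes, and without it the difference was 5.60. Ncl, which encodes nucleolin, a main protein of the nucleolus, lay at 9.60 and 9.73 against 4.42, 4.33 and 5.62, a log2 difference of 4.87 ± 0.38 (SE, adjusted p = 3.98e-07), with zygote 26 again the highest of its group. Tead4, a factor needed for trophectoderm, was detected on no zygote array and was at least 18.5-fold higher, and Eif1a, a translation initiation factor read early in 2-cell embryos, was 2.94 log2 higher (adjusted p = 0.00336); among zygotes Eif1a was detected in zygote 26 alone, and without that library it was at least 10.5-fold higher (adjusted p = 0.00101). Zfp352, another gene of this stage, lay at 6.18 and 7.05 against 5.97, 5.68 and 5.72 and did not pass (adjusted p = 0.16).

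Oocyte markers ran the other way in most cases. Gdf9, a growth factor secreted by the oocyte, lay at 11.68 and 11.36 in 2-cell controls and at 12.81, 13.00 and 13.02 in M-phase zygotes, a log2 difference of -1.43 ± 0.20 (SE, adjusted p = 5.39e-05). It fell but stayed bright in both groups. Of the other oocyte markers tested, Bmp15, Zp1, Npm2, Nlrp5, Ooep and H1f8 fell as well, whereas Oog1 (log2 difference -0.88, adjusted p = 0.0938) and Zp3 (-0.12, adjusted p = 0.822) did not pass. Each label therefore met markers of its stage, with the exceptions named.

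Many genes changed in each direction across the division. By the label of 2-cell control 22, this interval reaches to 22 to 24 h after the first mitosis. Of 12097 genes on the array, 8158 passed the detection filter and were tested, and 3450 of these differed (42.3%, adjusted p below 0.05, two-sided). In 2-cell controls 1666 genes were higher (20.4% of those tested) and 1784 were lower (21.9%), and the median difference over all genes was 1e-04 log2. The values of the 2 groups did not overlap for 5473 genes (67.1%). This held for 1662 of the 1666 genes that rose and for 1780 of the 1784 that fell. Most genes named below were chosen for it, so that it adds little to their calls. Genes that rose had a median difference of 1.96 log2, from a median level of 5.06 in M-phase zygotes to 7.77 in 2-cell controls. Genes that fell had a median difference of -1.90, from 7.81 to 5.29. A rise of at least 4 log2 was seen in 144 genes and a fall of that size in 76. The normalization sets the centre of all genes near 0, and the split between rises and falls depends on it: 75th percentile scaling gave 1703 higher and 1475 lower, and series matrix values 1379 and 2047. Without zygote 26 the counts were 1520 higher and 1704 lower. Among genes named below, the calls of Laptm5, Polr3k, Gtf2b, Rpl22, Pou5f1, Cdk1, Odf2, Twist1, Cd74, Sbds, Nol9 and Chd1 were lost under at least 1 alternative setting.

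**Figure D1:**
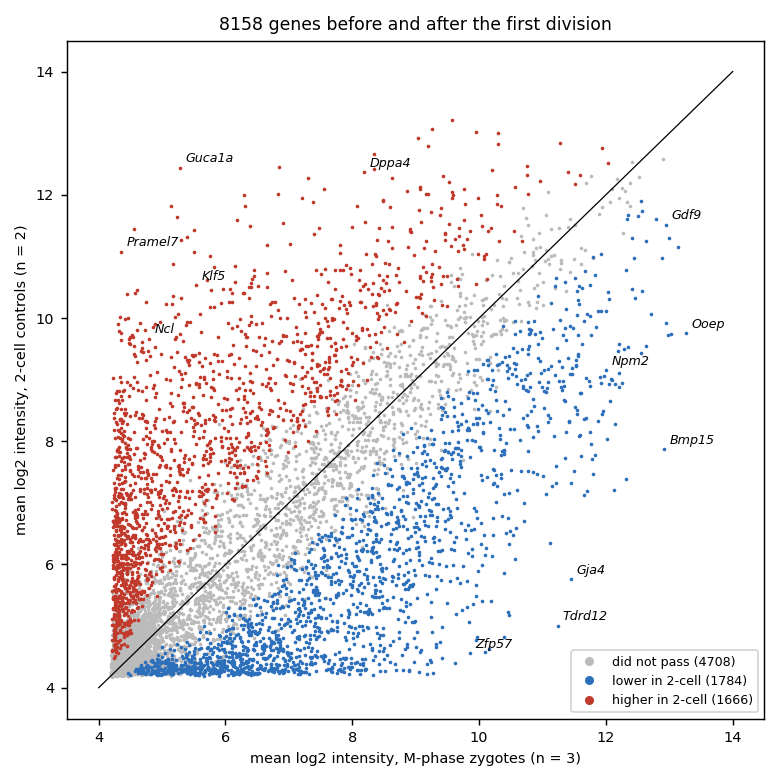
Mean normalized log2 intensity in 2-cell controls (vertical axis, n = 2) against M-phase zygotes (horizontal axis, n = 3), with 1 point for each of 8158 genes, coloured by whether the gene passed higher (1666), passed lower (1784) or did not pass (4708), and with the line of equal levels. Named genes that rose lie far above the line, many at the left edge where zygote levels are near background, and named oocyte genes lie at the right edge below it.

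Both kinds of change often reached the detection limit. Of the 1666 genes that rose, 460 (27.6%) were detected on no M-phase array, 307 on some and 899 on all 3. Of the 1784 genes that fell, 547 (30.7%) were detected on no 2-cell array, 284 on 1 and 953 on both. Folds for genes detected on no array of the dimmer group are given as lower bounds, against the dimmest signal called detected on each array or the probe's own signal, whichever was higher.

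The largest rises covered several functions. Guca1a, known as a calcium sensor of photoreceptors, lay at 12.34 and 12.53 in 2-cell controls and at 5.71, 5.33 and 4.81 in M-phase zygotes, a log2 difference of 7.15 ± 0.32 (SE, adjusted p = 7.34e-09). Gja1, which encodes the gap junction protein connexin 43, lay at 11.32 and 11.32 against 4.39, 4.29 and 7.50, a log2 difference of 5.93 ± 0.70 (SE, adjusted p = 1.26e-05). Ccne1, which encodes cyclin E1 for entry into S phase, lay at 11.35 and 11.50 against 5.37, 5.36 and 5.79, a log2 difference of 5.92 ± 0.33 (SE, adjusted p = 3.15e-08). Among the zygotes Gja1 was detected in zygote 26 alone, over 3 log2 above the others. Without that library Gja1 was at least 106.9-fold higher (adjusted p = 5.19e-08, limma). Other genes among the 16 largest rises were Pheta1 (6.90 ± 0.29), an endosomal trafficking protein, and Ppp2cb (6.69 ± 0.99), a catalytic subunit of protein phosphatase 2A. They also held Selenos (6.40 ± 0.37), a selenoprotein of the endoplasmic reticulum, Alppl2 (5.97 ± 0.27), an alkaline phosphatase of early embryos, and Slc39a4 (5.70 ± 0.36), a zinc importer. Itpkc (an inositol trisphosphate kinase), Ranbp10 (a Ran-binding protein), Flvcr2 (a membrane transporter) and Amhr2 (the receptor of anti-Mullerian hormone) were detected on no zygote array and were at least 55.2, 55.8, 39.6 and 42.4-fold higher. Adjusted p for the genes of these last sentences lay at or below 9.23e-05.

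The largest falls also covered several functions. Tdrd12, a Tudor-domain protein of the piRNA pathway, lay at 5.42 and 4.60 in 2-cell controls and at 11.24, 11.28 and 11.19 in M-phase zygotes, a log2 difference of -6.23 ± 0.37 (SE, adjusted p = 4.42e-08). Gja4, the connexin of the junctions between oocyte and granulosa cells, lay at 5.62 and 5.90 against 11.14, 11.22 and 11.97, a log2 difference of -5.68 ± 0.44 (SE, adjusted p = 3.73e-07). Zfp57, a zinc-finger protein that guards imprinted methylation, lay at 4.73 and 4.38 against 10.12, 9.45 and 9.98, a log2 difference of -5.29 ± 0.35 (SE, adjusted p = 9.8e-08). The zygotes lay close together for Tdrd12, and for all 3 genes they lay far above both 2-cell controls. Gpr1 (-5.58 ± 0.37), a chemerin receptor, Cox6a2 (-5.31 ± 0.55), a subunit of cytochrome c oxidase known from muscle, and Psenen (-4.91 ± 0.46), a subunit of gamma-secretase, also fell. Epb41l3 (a membrane skeleton protein) and Pla2g4c (a cytosolic phospholipase) were detected on no 2-cell array and were at least 44.4 and 42.7-fold lower. The other genes of the 16 largest falls had log2 differences from -4.94 (Slc4a8) to -5.23 (Cttnbp2nl).

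**Figure D2:**
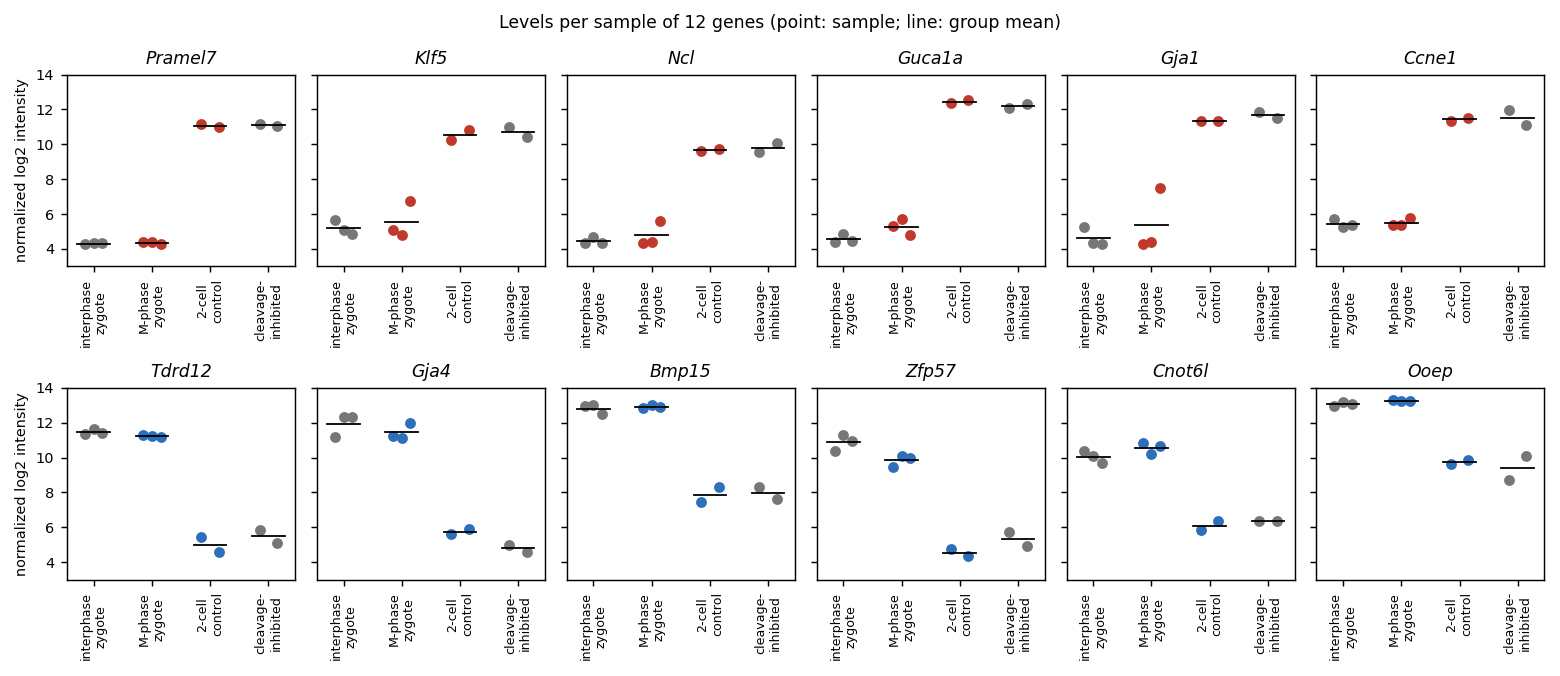
Normalized log2 intensity (vertical axis) of 12 genes in 3 interphase zygotes, 3 M-phase zygotes, 2 2-cell controls and 2 cleavage-inhibited samples, with a point for each sample and a line at each group mean; samples of the compared groups are coloured (red for genes that rose, blue for genes that fell). The zygote groups lie together, the 2-cell controls and cleavage-inhibited embryos lie together, and M-phase zygote 26 lies above its group for Klf5, Ncl and Gja1.

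Genes known for a brief burst at the 2-cell stage were mostly higher. Of 14 tested genes on the 2-cell transient activation list, 8 rose (57.1%) and 1 fell (7.14%), beside 20.4 and 21.9% of all genes. Their median was 1.32 log2 beside 1e-04 over all genes. Tdpoz1, a BTB-domain gene of this burst, lay at 9.56 and 9.21 in 2-cell controls and at 4.74, 4.45 and 4.53 in zygotes, a log2 difference of 4.82 ± 0.27 (SE, adjusted p = 3.19e-08). Tcstv3 lay at 11.26 and 10.90 against 9.65, 9.74 and 9.63, a log2 difference of 1.41 ± 0.21 (SE, adjusted p = 0.00011). Tdpoz1 was near background in zygotes, while Tcstv3 was already bright there. Spz1, a helix-loop-helix factor known from testis, rose by 3.10 log2, and Pramel6, a relative of Pramel7, was at least 4.03-fold higher. Rfpl4, an oocyte gene of the ubiquitin system placed in this list, fell (-3.30 ± 0.39).

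Of 17 tested early zygotic activation genes, 8 rose and 3 fell (47.06 and 17.65%, beside 20.4 and 21.9% of all genes). Their median was 0.16 log2, and they moved far in both directions. Over the alternatives the median ranged from 0.08 (without zygote 26) to 2.23 (genes detected on every array of a compared group). It was 0.36 without zygote 25 and 0.48 without 2-cell control 22. Psat1, an enzyme of serine synthesis, lay at 10.88 and 10.77 against 5.28, 5.46 and 6.70, a log2 difference of 5.01 ± 0.36 (SE, adjusted p = 1.91e-07). Gabpa, the DNA-binding ETS subunit of the factor GABP, lay at 8.80 and 9.12 against 4.45, 4.48 and 4.43 and was at least 20.5-fold higher (adjusted p = 0.000228). Nr5a2, a nuclear receptor, lay at 10.23 and 10.06 against 7.86, 8.08 and 7.76, a log2 difference of 2.24 ± 0.47 (SE, adjusted p = 0.00136). Gabpa was detected on no zygote array. Subunits of the CCAAT-binding factor NF-Y split: Nfyb rose by 2.50 log2, and Nfya, detected on no 2-cell array, was at least 10.8-fold lower. The cell cycle inhibitor Cdkn1a rose by 2.23 log2, and Slc2a1, a glucose transporter, fell (-3.21 ± 0.28).

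Ribosome biogenesis factors, the proteins that transcribe, cut, modify and assemble ribosomal RNA in the nucleolus, were higher in 2-cell controls for most members. Of 71 tested, 43 rose (60.6%, beside 20.4% of all genes) and 4 fell (5.63%, beside 21.9%), with a median of 1.45 log2. Without M-phase zygote 26 these counts were 41 and 4. Tbl3, a subunit of the small-subunit processome, lay at 9.78 and 10.03 against 4.74, 4.46 and 5.48, a log2 difference of 5.01 ± 0.41 (SE, adjusted p = 5.86e-07). Rrp12, which acts in export and maturation of both subunits, lay at 10.35 and 10.57 against 5.90, 5.54 and 5.89, a log2 difference of 4.68 ± 0.40 (SE, adjusted p = 7.43e-07). Wdr74, a factor of large-subunit assembly, lay at 10.37 and 10.28 against 6.03, 6.30 and 6.79, a log2 difference of 3.95 ± 0.57 (SE, adjusted p = 7.09e-05). All 3 had 2-cell levels several log2 above every zygote. Fbl, the methyltransferase fibrillarin, and Nip7, a factor of rRNA processing, rose by 3.73 and 3.57 log2, while the RNA methyltransferases Nsun5 and Nop2 were detected on no zygote array and were at least 18.8 and 12.2-fold higher. The members that fell were Efl1 (-2.71 ± 0.48) and Sbds (-0.80 ± 0.20), which release eIF6 from the new large subunit, Riok1 (-2.29 ± 0.27), a kinase of late small-subunit assembly, and Nol9 (-1.35 ± 0.33), a polynucleotide kinase.

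Most tested genes of the polymerases that make ribosomal and transfer RNA rose as well. Of 26 tested RNA polymerase I and III genes, 17 rose (65.4%) and 1, Polr3k, fell (3.85%), beside 20.4 and 21.9% of all genes. Their median was 1.53 log2. Ubtf, the nucleolar factor that opens ribosomal DNA for polymerase I, lay at 9.78 and 9.14 against 4.48, 4.71 and 5.13, a log2 difference of 4.69 ± 0.64 (SE, adjusted p = 4.55e-05). The polymerase I subunit Polr1e lay at 10.31 and 10.71 against 6.04, 6.50 and 6.64, a log2 difference of 4.12 ± 0.39 (SE, adjusted p = 1.77e-06). Polr1c, shared by both polymerases, lay at 10.41 and 10.59 against 6.24, 6.51 and 7.23, a log2 difference of 3.85 ± 0.32 (SE, adjusted p = 6.6e-07). Zygote 26 was the highest zygote in each of the 3. The large polymerase I subunit Polr1a rose by 3.14 log2. Polr3k fell by 1.64 log2 (adjusted p = 0.0159, limma). Of the list's polymerase III factors, Gtf3c6 rose, and Brf2, Gtf3c2 and Brf1 did not pass.

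Promoter sequences of 4 of these genes are shown because their windows hold the letters bound by ETS factors such as GABP, and 2 further promoters, of a gene that fell (Bmp15) and of the largest of the marker rises (Pramel7), are shown for contrast because theirs do not. Each window is 300 bases of RefSeq sequence (build GRCm38.p6), from 250 bases before to 50 after the gene's start, printed 5′ to 3′ along the gene, and capitals mark CCGGAAG or its reverse complement CTTCCGG. The windows are Wdr74 at chr19:8735589-8735888, Nop2 at chr6:125131633-125131932, Nip7 at chr8:107056627-107056926 and Polr1e at chr4:45018359-45018658, all on the plus strand, and Bmp15 at chrX:6320675-6320974 and Pramel7 at chr2:87492369-87492668 on the minus strand.
Wdr74: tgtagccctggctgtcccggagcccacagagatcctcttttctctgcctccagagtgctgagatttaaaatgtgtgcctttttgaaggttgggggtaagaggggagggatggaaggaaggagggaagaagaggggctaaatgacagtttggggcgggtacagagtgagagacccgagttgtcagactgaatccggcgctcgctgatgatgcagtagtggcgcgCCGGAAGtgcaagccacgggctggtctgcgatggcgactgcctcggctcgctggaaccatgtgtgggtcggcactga
Nop2: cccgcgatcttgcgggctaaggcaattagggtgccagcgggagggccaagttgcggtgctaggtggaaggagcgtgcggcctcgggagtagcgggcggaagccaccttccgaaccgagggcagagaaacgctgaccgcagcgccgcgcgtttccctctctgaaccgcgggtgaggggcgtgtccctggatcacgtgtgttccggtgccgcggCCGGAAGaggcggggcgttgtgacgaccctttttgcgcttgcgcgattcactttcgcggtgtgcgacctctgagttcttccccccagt
Nip7: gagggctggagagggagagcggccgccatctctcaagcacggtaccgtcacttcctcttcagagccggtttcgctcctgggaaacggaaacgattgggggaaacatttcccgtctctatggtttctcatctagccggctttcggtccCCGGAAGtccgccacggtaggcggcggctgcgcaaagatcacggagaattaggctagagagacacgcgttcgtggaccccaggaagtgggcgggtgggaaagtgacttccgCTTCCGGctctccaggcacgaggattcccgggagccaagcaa
Polr1e: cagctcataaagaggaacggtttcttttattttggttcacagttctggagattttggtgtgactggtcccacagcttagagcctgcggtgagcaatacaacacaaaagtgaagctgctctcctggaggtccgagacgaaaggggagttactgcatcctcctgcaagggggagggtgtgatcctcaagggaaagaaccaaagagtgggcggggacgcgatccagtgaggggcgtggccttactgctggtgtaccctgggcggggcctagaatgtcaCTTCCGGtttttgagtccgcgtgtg
Bmp15: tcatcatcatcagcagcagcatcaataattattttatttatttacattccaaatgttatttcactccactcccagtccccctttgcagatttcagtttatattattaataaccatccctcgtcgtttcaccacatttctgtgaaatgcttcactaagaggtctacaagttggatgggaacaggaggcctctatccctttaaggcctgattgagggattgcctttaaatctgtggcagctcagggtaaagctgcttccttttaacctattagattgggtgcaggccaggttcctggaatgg
Pramel7: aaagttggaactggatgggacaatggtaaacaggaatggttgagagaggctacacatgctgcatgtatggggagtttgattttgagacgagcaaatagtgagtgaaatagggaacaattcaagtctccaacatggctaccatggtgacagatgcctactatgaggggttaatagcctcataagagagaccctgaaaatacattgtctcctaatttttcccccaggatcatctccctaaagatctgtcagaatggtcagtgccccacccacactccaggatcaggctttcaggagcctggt
The first capital letters begin 27 bases before the start in Wdr74, 38 before it in Nop2, 103 before it and again 9 after it in Nip7, and 26 after it in Polr1e.

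Promoter windows were found for 6590 of the 8158 tested genes (8472 windows, some genes having several starts). CCGGAAG on either strand stood in 23.4% of windows of genes that rose (395 of 1689), in 14.0% of windows of genes that fell (276 of 1969), in 13.1% of windows of genes that did not pass, in 15.4% of all tested windows and in 8.86% of all windows of the RefSeq table. Among members that rose it stood in 45.5% of windows of ribosome biogenesis factors (15 of 33), 38.1% of RNA polymerase I and III genes (8 of 21), 31.3% of ribosomal proteins (10 of 32) and 16.7% of oxidative phosphorylation genes. Among members that fell it stood in 16.7% of windows of RNA storage genes (3 of 18), 9.09% of maternal-effect genes (2 of 22) and 0 of the 12 windows of oocyte secreted genes. Base composition was alike over the pooled calls. Median GC content was 60.3% in genes that rose, 60.0% in genes that fell and 59.2% in the rest, with median CpG counts of 20, 18 and 17. It was not alike between the lists. The median CpG count was 21 for ribosome biogenesis factors that rose. For members that fell it was 9 in oocyte secreted genes, 8.5 in maternal-effect genes and 33.5 in RNA storage genes. CCGGAAG itself holds a CpG, and the part of composition in these shares was not tested. The ETS letters were picked out after these shares were seen, from 5 sets searched on both strands; matches of different letters may overlap. Over genes that rose and genes that fell, CACGTG stood in 11.2 and 8.07% of windows, CCAAT in 37.7 and 38.1%, CCCGCCC in 46.1 and 44.7%, and TATAAA in 7.87 and 8.13%. These are descriptions of the windows; binding was not measured.

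**Figure D3:**
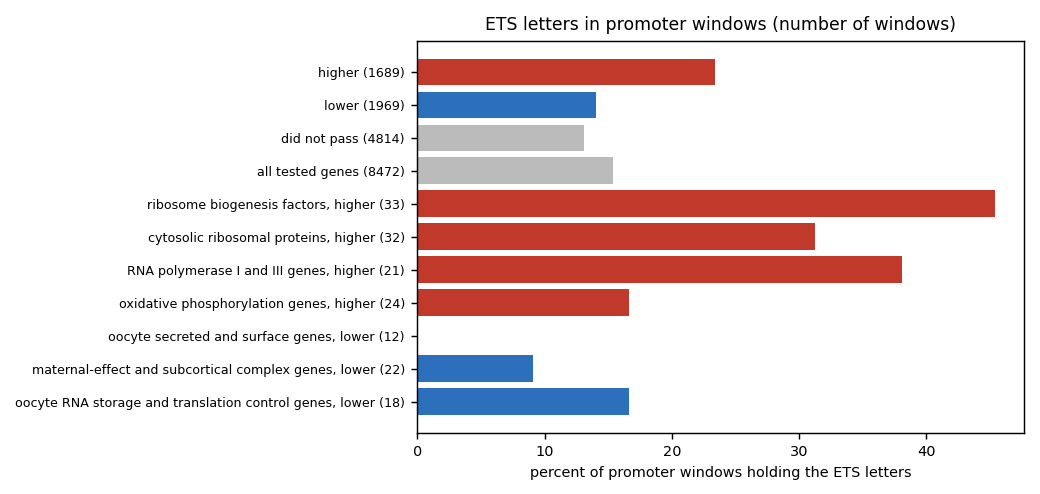
Percent of 300-base promoter windows (horizontal axis) that hold the ETS letters on either strand, by call over all tested genes and by list, with the number of windows in brackets; red marks genes higher and blue genes lower in 2-cell controls. The share is 23.4% for genes that rose, beside 15.4% of all tested windows, and 45.5% for ribosome biogenesis factors that rose.

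Genes of the finished ribosome rose too. Of 33 tested cytosolic ribosomal protein genes, 27 rose (81.8%) and 1 fell (3.03%), beside 20.4 and 21.9% of all genes. Their median of 2.46 log2 was the highest of the lists compared. Rps27 lay at 11.38 and 11.81 against 5.16, 5.76 and 7.65, a log2 difference of 5.40 ± 0.55 (SE, adjusted p = 3.73e-06). Rpl37a lay at 10.31 and 10.82 against 5.72, 6.25 and 7.25, a log2 difference of 4.16 ± 0.41 (SE, adjusted p = 2.9e-06). In both genes zygote 26 was the highest zygote, and without it the difference for Rps27 was 6.14, while the list count stood at 26 higher and 1 lower. Rpl22 was the member that fell (by 2.10 log2, adjusted p = 0.0101), with 2-cell values of 4.53 and 5.90 that lay far from each other. Many ribosomal proteins have near-identical processed pseudogenes, so that a probe may read more than 1 copy.

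Of 35 tested translation factors, 17 rose and 6 fell (48.6 and 17.1%, beside 20.4 and 21.9% of all genes). Their median was 0.997 log2 (0.853 without 2-cell control 23). Eif4ebp1, an inhibitor of the cap-binding factor eIF4E, rose by 3.82 log2, and Eif5, which starts GTP hydrolysis at the start codon, by 2.70. Eif4enif1, which carries eIF4E in oocyte granules, fell (-2.76 ± 0.45). Of 12 tRNA synthetase genes 4 rose and 2 fell (33.3 and 16.7%, beside 20.4 and 21.9% of all genes). Their median was -0.02 log2 (0.29 without 2-cell control 23). The alanine enzyme Aars was 2.13 log2 higher and Farsb, a subunit of the phenylalanine enzyme, fell by 2.27.

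Machinery for messenger RNA rose in part. Of 33 tested RNA polymerase II and general factor genes, 16 rose (48.5%) and 4 fell (12.1%), beside 20.4 and 21.9% of all genes. Their median was 0.86 log2. Elob, the elongin B subunit, rose by 4.15 log2 and Polr2k, a small subunit shared by all 3 polymerases, by 3.44, while Gtf2b, the initiation factor TFIIB, fell (-2.22 ± 0.46). Of 51 tested spliceosome genes, 21 rose (41.2%) and 7 fell (13.7%), while 12 rose and 5 fell with slide as a block. Their median was 0.47 log2 (0.40 without 2-cell control 22). Snrpd2, a Sm core protein, lay at 10.58 and 11.10 against 5.54, 5.79 and 7.14, a log2 difference of 4.69 ± 0.73 (SE, adjusted p = 0.000135). Snrpb, another Sm protein, rose by 4.33 log2 and Snrpc, of the U1 particle, by 3.49. Snrnp70, also of the U1 particle, was detected on no 2-cell array and was at least 4.74-fold lower. Of 14 nuclear import and export genes 6 rose and 2 fell (42.9 and 14.3%, beside 20.4 and 21.9% of all genes). Their median was 0.55 log2 (1.15 without 2-cell control 23 and 0.48 without 2-cell control 22). The importin Kpna1 was at least 10.1-fold higher.

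Energy metabolism split by pathway. Of 49 tested oxidative phosphorylation genes, 25 rose and 4 fell (51.0 and 8.16%, beside 20.4 and 21.9% of all genes). Their median was 1.13 log2, and without zygote 26 the counts were 23 and 4. Cox7c, a subunit of cytochrome c oxidase, lay at 9.73 and 10.04 against 4.67, 4.61 and 6.85, a log2 difference of 4.50 ± 0.64 (SE, adjusted p = 6.28e-05). Ndufc1, of complex I, lay at 8.24 and 8.41 against 4.69, 4.42 and 5.15, a log2 difference of 3.57 ± 0.37 (SE, adjusted p = 3.88e-06). For Cox7c zygote 26 lay over 2 log2 above the other zygotes, and without it the difference was 5.24; for Ndufc1 all zygotes were near background. Ndufa10, another complex I subunit, fell (-2.66 ± 0.27).

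Glycolytic and lactate enzymes showed no rise: of 16 tested, 0 rose (beside 20.4% of all genes) and 7 fell (43.8%, beside 21.9%). Their median was -0.45 log2. Several alternatives gave 1 rise in place of 0 (without zygote 26 the counts were 1 and 6). Tpi1, triosephosphate isomerase, lay at 7.31 and 7.68 against 10.80, 10.66 and 11.09, a log2 difference of -3.35 ± 0.22 (SE, adjusted p = 1.01e-07). Pkm, pyruvate kinase, lay at 8.69 and 8.07 against 10.97, 11.19 and 11.19, a log2 difference of -2.74 ± 0.39 (SE, adjusted p = 7.09e-05). Both genes were detected on all 5 arrays. Gapdh, often used as a reference gene, fell by 1.76 log2 (adjusted p = 0.000389). Slc2a3, a glucose transporter, lay at 8.35 and 8.20 in 2-cell controls and at 4.54, 4.30 and 8.84 in zygotes and did not pass (log2 difference 2.38, adjusted p = 0.0654); without zygote 26, the one zygote in which it was detected, it was at least 13.0-fold higher (adjusted p = 1.54e-05).

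Of 18 tested nucleotide synthesis enzymes, 10 rose and 2 fell (55.6 and 11.1%, beside 20.4 and 21.9% of all genes). Their median was 0.86 log2 (0.49 without 2-cell control 23). Prps1, which makes the ribose donor of all nucleotides, lay at 11.97 and 12.04 against 6.53, 5.70 and 6.63, a log2 difference of 5.71 ± 0.59 (SE, adjusted p = 4.05e-06). Nme1 and Nme2, nucleoside diphosphate kinases, rose by 4.54 and 4.91 log2, and Gart, of purine synthesis, by 3.59. Nme1, Nme2 and Gart were each highest in zygote 26 among the zygotes, and without it the differences were 5.13, 5.76 and 4.22. Of 31 proteasome genes 12 rose and 5 fell (38.7 and 16.1%, beside 20.4 and 21.9% of all genes), with a median of 0.20 log2. The catalytic subunit Psmb5 was higher by 4.48 log2 and the activator Psme3 lower (-2.63 ± 0.20). Of 26 chaperones 5 rose and 3 fell, 19.2 and 11.5% beside 20.4 and 21.9% of all genes, with a median near 0 (4 and 2 without zygote 26, 3 and 2 without 2-cell control 22). Hspa4 was 3.50 log2 higher and Dnaja2 fell by 1.84.

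Genes that the oocyte secretes or displays fell as a group. Of 18 tested, 12 fell (66.7%) and 0 rose, beside 21.9 and 20.4% of all genes. Their median was -1.92 log2. Bmp15, which with GDF9 signals to granulosa cells, lay at 7.43 and 8.30 in 2-cell controls and at 13.02, 12.87 and 12.88 in zygotes, a log2 difference of -5.05 ± 0.38 (SE, adjusted p = 2.85e-07). It remained clearly detected in both 2-cell controls. Tgfb2, a growth factor of the same family, fell by 3.88 log2, and the egg coat gene Zp1 fell by 2.02. Fgf8, a growth factor that acts on granulosa cells, and Izumo1r (Juno, the egg receptor for sperm) were detected on no 2-cell array and were at least 17.4 and 9.26-fold lower. These counts were 0 and 12 without zygote 26 as well.

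Maternal-effect genes, whose products the oocyte supplies and the embryo needs, fell for 16 of 27 tested members (59.3%, beside 21.9% of all genes). The 6 that rose were 22.2%, near the 20.4% of all genes. The list median was -2.37 log2. Ooep, of the subcortical maternal complex, lay at 9.62 and 9.88 against 13.24, 13.32 and 13.24, a log2 difference of -3.52 ± 0.34 (SE, adjusted p = 2.25e-06). Nlrp5, of the same complex, lay at 8.02 and 8.17 against 11.96, 11.18 and 11.61, a log2 difference of -3.49 ± 0.23 (SE, adjusted p = 1.07e-07). Npm2, a histone chaperone of egg chromatin, lay at 9.15 and 9.16 against 12.23, 11.91 and 11.87, a log2 difference of -2.84 ± 0.29 (SE, adjusted p = 3.9e-06). All 3 were still detected on both 2-cell arrays. Padi6 (-2.66 ± 0.16), of the cytoplasmic lattices, Nlrp9c (-4.77 ± 0.40), an NLR family member, and the linker histone H1f8 (-2.37 ± 0.31) fell too. Uhrf1, the partner of the maintenance DNA methyltransferase, fell by 2.43 log2, and Tet3, which oxidizes methylcytosine in the zygote, was at least 5-fold lower. The ubiquitin enzyme Ube2a fell by 4.19 log2. Trim28, the co-repressor recruited by KRAB zinc-finger proteins, rose by 1.88 log2. Without zygote 26 the list gave 3 rises and 16 falls, without zygote 24 or without 2-cell control 23 it gave 3 and 15, and without 2-cell control 22 it gave 2 and 15.

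The oocyte's stores of RNA-binding proteins showed the same direction. Of 20 tested genes of RNA storage and translation control, 14 fell and 3 rose (70 and 15%, beside 21.9 and 20.4% of all genes). Without zygote 26, 15 fell and 1 rose. Their median was -1.71 log2 (-1.84 without 2-cell control 22). Stau2, a double-stranded RNA binding protein, lay at 6.43 and 5.51 against 9.68, 9.53 and 9.24, a log2 difference of -3.51 ± 0.33 (SE, adjusted p = 1.92e-06). Dazl, a translation activator of germ cells, lay at 4.36 and 4.27 against 8.21, 8.24 and 8.17, was detected on no 2-cell array and was at least 11.5-fold lower (adjusted p = 6.67e-05). Lsm14b, of oocyte ribonucleoprotein particles, lay at 6.03 and 4.55 against 8.43, 8.61 and 8.72, a log2 difference of -3.30 ± 0.51 (SE, adjusted p = 0.000137). The 2-cell controls differed from each other by over 1 log2 for Lsm14b, more than the zygotes did.

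Genes of RNA decay had no common direction. Of 42 tested, 6 were higher and 11 lower (14.3 and 26.2%, beside 20.4 and 21.9% of all genes). Without zygote 26 the counts were 3 and 11. Their median was 0.24 log2 (0.12 without 2-cell control 22). Subunits of the CCR4-NOT deadenylase, a family picked out after its values were seen, did share a direction. Of 8 tested Cnot genes 6 fell and 0 rose, beside 21.9% lower and 20.4% higher over all genes. Cnot6l, a catalytic subunit known for maternal RNA clearance in mice, lay at 5.84 and 6.34 against 10.22, 10.85 and 10.65, a log2 difference of -4.48 ± 0.31 (SE, adjusted p = 1.2e-07). Cnot7, another catalytic subunit, lay at 8.82 and 8.18 against 11.65, 11.56 and 11.40, a log2 difference of -3.04 ± 0.32 (SE, adjusted p = 5.01e-06). The subunits Cnot4 (-2.31 ± 0.42), Cnot2 (-1.75 ± 0.38) and Cnot9 (-1.46 ± 0.29) fell, Cnot3 was at least 3.84-fold lower, and Cnot10 and Cnot11 did not pass. Btg4, the adaptor that brings this complex to maternal RNA, lay at 8.66 and 8.49 against 10.34, 11.13 and 11.13, a log2 difference of -2.29 ± 0.31 (SE, adjusted p = 4.42e-05). The antiproliferative adaptor Tob2 fell by 3.66 log2. In contrast Tut7, a terminal uridylyltransferase, rose by 3.94 log2, Exosc6, of the nuclear and cytoplasmic exosome, by 3.21, and Dis3, the exosome's nuclease, was at least 3.38-fold higher.

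**Figure D4:**
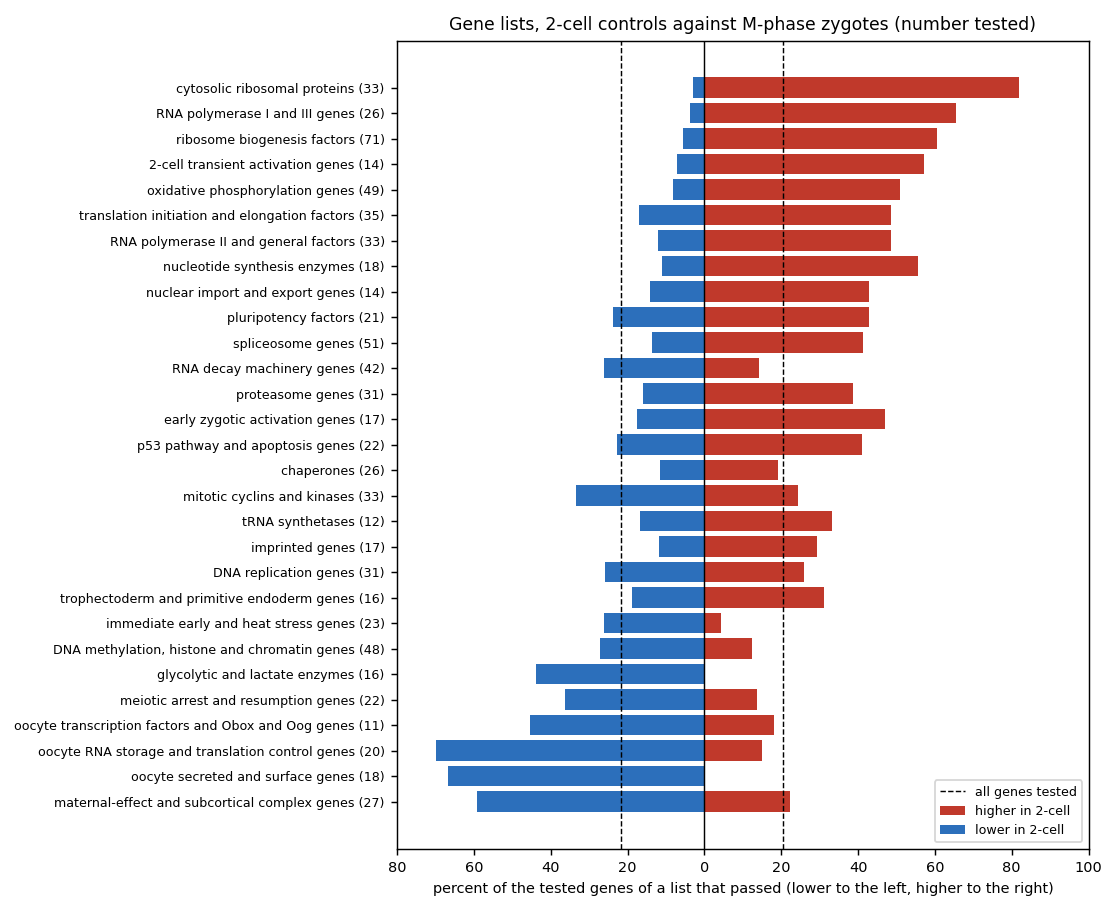
Percent of the tested genes of 29 gene lists that passed higher (red, to the right) or lower (blue, to the left) in 2-cell controls, with the number tested in brackets, ordered by median log2 difference; dashed lines mark 20.4% higher and 21.9% lower over all genes. Ribosomal proteins, polymerase I and III genes and ribosome biogenesis factors stand at the top, and oocyte secreted, RNA storage and maternal-effect genes at the bottom.

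Close relatives moved in opposite directions in some of the families picked out after their values were seen. How often families split over all genes was not counted. Beside the connexins, where Gja1 rose and Gja4 fell, cyclin E genes split, with Ccne1 higher and Ccne2 lower (-2.46 log2). Of 11 tested oocyte transcription factor, Obox and Oog genes, 2 rose and 5 fell (median -0.88 log2). The homeobox gene Obox6 lay at 9.66 and 9.57 against 4.69, 4.61 and 4.73, a log2 difference of 4.94 ± 0.23 (SE, adjusted p = 1.06e-08). Obox1 lay at 7.39 and 8.14 against 11.32, 11.64 and 11.87, a log2 difference of -3.85 ± 0.35 (SE, adjusted p = 1.39e-06). Obox6 was near background before division, and Obox1 fell from a bright level to one still detected. Cpeb2, a cytoplasmic polyadenylation element binding protein, rose by 3.90 log2, while Cpeb3 was at least 2.7-fold lower. Other picked families did not split. Of 5 tested Nlrp4, 5 and 9 genes 0 rose and 4 fell. Of 7 tested H2A genes 4 rose and 0 fell, with H2ac12 at 5.60 log2, and of 9 tested H2B genes 0 rose and 2 fell. Over all genes 20.4% rose and 21.9% fell. Near-identical copies of the H2A and H2B genes may share probes.

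Factors of the later lineages were mixed. Of 21 tested pluripotency factors 9 rose and 5 fell (42.9 and 23.8%, beside 20.4 and 21.9% of all genes). Their median was 0.55 log2. Without zygote 26, 12 rose and 5 fell with a median of 1.07, and without zygote 24 the median was 0.35. Klf2, a relative of Klf5, lay at 10.12 and 9.99 against 5.02, 5.53 and 5.19, a log2 difference of 4.81 ± 0.35 (SE, adjusted p = 2.23e-07). Dppa4, a chromatin factor of early embryos, lay at 12.52 and 12.22 against 7.85, 7.90 and 8.83, a log2 difference of 4.18 ± 0.95 (SE, adjusted p = 0.00267). Sox15 rose by 4.26 log2, and Sox21, a factor with uneven levels among 4-cell blastomeres in mice, was at least 36.3-fold higher. Pou5f1 (Oct4) fell by 1.79 log2. Nanog lay at 7.35 and 7.38 in 2-cell controls and at 4.22, 4.29 and 7.81 in zygotes and did not pass (adjusted p = 0.0931). The value of zygote 26 was above both 2-cell controls, and without this library Nanog was detected on no zygote array and was at least 6.88-fold higher (adjusted p = 0.000524). Of 16 trophectoderm and primitive endoderm genes 5 rose and 3 fell (31.3 and 18.8%, beside 20.4 and 21.9% of all genes). Their median was -0.11 log2 (-0.12 without 2-cell control 22). Among them Gata6 and Tfap2c rose by 3.14 and 2.94 log2, and the sodium pump subunit Atp1b1 fell by 3.88.

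Cell cycle, replication, chromatin and stress genes moved in both directions, and several of these counts lay near the shares over all genes (20.4% higher and 21.9% lower). Of 33 mitotic cyclins and kinases 8 rose and 11 fell (24.2 and 33.3%; 5 rose without 2-cell control 22, and 5 without 23), among them Bub3, of the spindle checkpoint, which lay at 5.10 and 5.87 against 9.90, 10.11 and 9.83, a log2 difference of -4.46 ± 0.33 (SE, adjusted p = 2.24e-07). The checkpoint kinase Chek1 fell by 4.15 log2, and Cdk1 rose by 2.29 (adjusted p = 0.0113). Of 31 DNA replication genes 8 rose and 8 fell (25.8% each; 7 and 5 without zygote 25). The licensing factor Cdc6 and the GINS subunit Gins3 rose by 2.80 and 3.22 log2, while the origin subunit Orc5 fell by 2.66 and the single-strand binding subunit Rpa1 fell by 2.46. Of 48 DNA methylation, histone and chromatin genes 6 rose and 13 fell (12.5 and 27.1%; 6 and 8 without 2-cell control 23). The methyltransferase Ehmt2 was at least 7.2-fold higher, the deacetylase Hdac1 rose by 2.67 log2, and the methyltransferase Setdb1 fell by 2.77. Of 22 p53 pathway and apoptosis genes 9 rose and 5 fell (40.9 and 22.7%), with Bcl2l11, a promoter of apoptosis, higher by 2.67 log2, Bcl2l1, which opposes it, lower (-2.76), and the caspase Casp8 at least 14.2-fold lower. Of 23 immediate early and heat stress genes 1 rose (4.35%), Trib3, and 6 fell (26.1%), among them the phosphatase Dusp1 (-2.78 log2). Without 2-cell control 23, 3 of these fell. Of 17 imprinted genes 5 rose and 2 fell (29.4 and 11.8%; 3 rose without zygote 25 or 26 or without 2-cell control 22 or 23). Impact, a regulator of translation, was at least 4.43-fold higher, and the inhibitor Cdkn1c fell by 2.87 log2. Of 22 meiotic arrest and resumption genes 3 rose and 8 fell (13.6 and 36.4%), with Tdrd12 the largest.

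Neighbouring groups were set beside these changes. M-phase and interphase zygotes differed in 222 genes (2.72%), of which 138 were higher (1.69%) and 84 lower (1.03%) in M phase. This count was not stable: it moved between 0 and 589 under the alternatives given in the closing section, and was 60 without M-phase zygote 25 and 589 without interphase zygote 1. This comparison and the main one share the M-phase samples, so that their values are only set side by side. The median difference of M-phase from interphase zygotes was 0.01 log2 over genes that rose by the 2-cell stage and 0.14 over those that fell. Pramel7 lay at 4.27, 4.32 and 4.34 in interphase zygotes and Bmp15 at 12.93, 13.00 and 12.51, levels like those of M-phase zygotes. Tcstv3 was one gene already higher in M phase than in interphase, by 1.06 log2 (adjusted p = 0.011), and Psat1 another, by 1.41 (adjusted p = 0.0353).

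The 2-cell controls and the cleavage-inhibited embryos of the same timing differed in 19 genes (0.233%), 9 higher (0.11%) and 10 lower (0.123%) in 2-cell controls. Klf5 lay at 10.96 and 10.43 in the cleavage-inhibited samples, Pramel7 at 11.17 and 11.07 and Gja4 at 5.0 and 4.59. For each of the 3 genes these values lay on the side of the 2-cell controls, far from the zygotes. For Bmp15 they were 8.34 and 7.65. Of the members of the 29 lists of embryo genes, 2 differed between these groups. Aen, a nuclease induced by p53, was detected on no cleavage-inhibited array and was at least 1.65-fold higher in 2-cell controls (adjusted p = 4.12e-06), and the chromatin remodeler Chd1 was lower (-1.37, adjusted p = 0.000802). This comparison shares the 2-cell controls with the main one, and its count moved between 0 and 118 under the alternatives given in the closing section.

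A second version of the array held samples that do not enter the main comparison. These were 4-cell control embryos (2 arrays), MII oocytes (2 arrays) and embryos without a genome (1 array), with 6558 of the tested genes measured, 6464 of them by the same probe. The values were normalized on their own, and differences are given without a test. Genes that rose by the 2-cell stage had a median difference of 2.43 log2 between 4-cell embryos and MII oocytes, and 73.4% of them were more than 1 log2 higher in 4-cell embryos, beside 30.8% of all genes. Genes that fell had a median of -1.99, and 67.4% were more than 1 log2 lower, beside 31.3% of all genes. Genes that did not pass had a median of -0.05.

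In embryos without a genome, set against the same oocytes, the median was -0.06 log2 for genes that rose and -0.10 for genes that fell. More than 1 log2 higher were 21.4% of the genes that rose, beside 23.5% of all genes, and more than 1 log2 lower were 30.3% of the genes that fell, beside 24.4% of all. Pramel7 was 7.62 log2 above oocytes in 4-cell embryos and 0.41 above them without a genome. For Tead4 these differences were 6.80 and -0.32, and for Gja1 6.32 and -0.30. These 3 genes were thus far higher in 4-cell embryos and near the oocyte level without a genome. Klf5 and Ncl had differences of 2.24 and 2.29 in the genome-less array, beside 6.81 and 7.66 in 4-cell embryos. The change was not kept in every case: Tcstv3 was -1.38 log2 from oocytes at the 4-cell stage, and Ube2a, which fell across the first division, was 3.41 higher in 4-cell embryos than in oocytes. Among genes that fell, Bmp15 differed from oocytes by -6.16 in 4-cell embryos and 1.25 without a genome, and Cnot6l by -4.78 and 0.74. The genome-less values come from 1 array and have no replicate check.

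**Figure D5:**
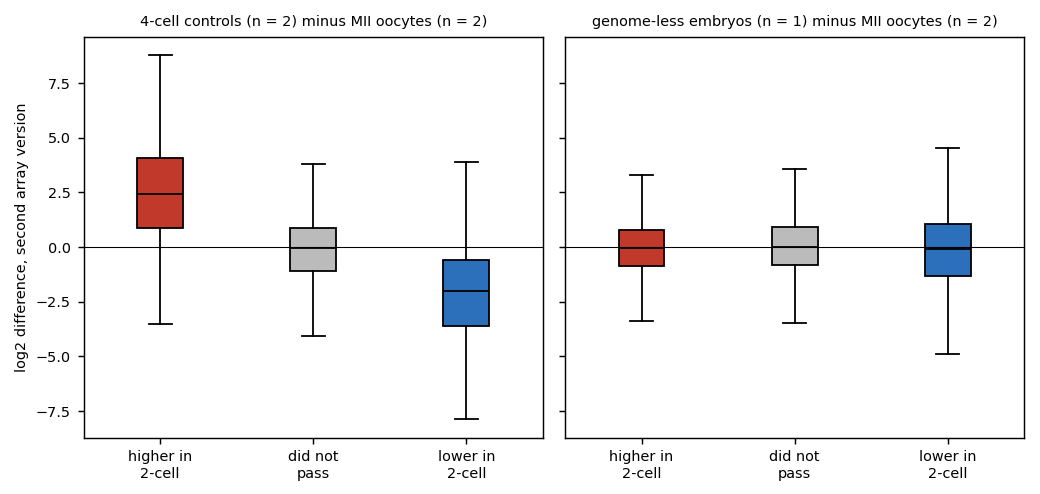
Log2 difference from MII oocytes on the second array version (vertical axis) in 4-cell controls (left) and in embryos without a genome (right), for genes that rose, did not pass or fell across the first division; boxes span the quartiles with a line at the median, whiskers reach the furthest value within 1.5 box lengths and points beyond are not drawn. In 4-cell controls the medians are 2.43, -0.05 and -1.99, and in the genome-less array all lie near 0.

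Genomic position and span were set beside the calls. The median genomic span was 15295 bp for genes that rose, 27255 bp for genes that fell and 21555.5 bp for genes that did not pass. The share of tested genes that rose ranged over chromosomes from 13.5% on chromosome 6 to 26.3% on chromosome 17, and on the X chromosome it was 21.6%. These values describe the tested genes and carry no test.

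Markers of other cells that could be carried along with embryos were checked. Over all genes tested, 20.4% rose and 21.9% fell. Of 11 tested cumulus and granulosa cell genes 1 rose (Amhr2) and 1 fell (Esr2), and the summed linear level of the list was 1172 to 1192 in 2-cell controls and 659.5 to 891.5 in M-phase zygotes. In 2-cell controls Amhr2 made most of this sum. The cumulus genes Has2 and Ptx3 were detected on none of the 5 arrays. Of 6 sperm genes Ldhc rose and Odf2 fell, with summed levels of 423.5 to 468.2 against 697.5 to 786.2. Of 19 fibroblast genes Twist1 rose and Mmp2 fell, with summed levels of 416.8 to 547.6 in 2-cell controls, 3729 to 4780 in M-phase zygotes and 60400 to 64280 in the fibroblasts of the series. Mmp2 lay at 8.63 and 8.35 against 12.03, 11.83 and 12.00, and it alone made most of the zygote sum. Of the 19 genes, 12 were detected on no M-phase array, and the collagens Col1a2 and Col3a1 on none of the 5 arrays. S100a6, also of this list, did not pass. It lay at 9.26 in M-phase zygote 26, against 4.60 and 4.91 in zygotes 24 and 25. In 2-cell controls 22 and 23 it lay at 6.51 and 4.78. Of 17 leukocyte genes Cd74 rose and Laptm5 and C1qb fell, with summed levels of 86.86 to 100.6 against 605.9 to 775.4. Cd74 was detected on no zygote array and was at least 1.02-fold higher without zygote 26. Its call was lost under 11 of 18 alternatives. Laptm5 made most of the zygote sum, and 13 of the 17 genes were detected on no M-phase array. The pan-leukocyte marker Ptprc was detected on none of the 5 arrays. Laptm5 lay at 4.23 and 4.22 against 8.96, 9.27 and 9.30 (at least 22.5-fold lower, adjusted p = 0.00363), with an interphase zygote range of 6.73 to 9.28. Of 2 keratinocyte genes neither passed, with summed levels of 16.24 to 45.75 against 13.64 to 40.72. The part of other cells in the results was not tested.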

How the data were processed

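RNA of each sample was isolated with a PicoPure kit and labelled with the Illumina TotalPrep kit, per the labels' protocols. Per the file headers, each array has an average bead intensity and a detection p-value for every probe, exported from GenomeStudio per the submitters' processing notes (no version stated). Arrays had not been normalized against each other in these deposited files. The series matrix gave linear intensities of 16075 probes; each column was a straight-line transform of the unnormalized intensity as deposited by the authors, except that of the repeat hybridization of cleavage-inhibited embryos (R squared 0.992), and it was used as an alternative.

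All 22 arrays of the first version, on 5 slides, were normalized together by limma (3.58.1, under R 4.3.3) with its neqc function (normexp correction with negative controls inferred from detection p-values, an offset of 16, quantile normalization, log2). The 15 arrays of the second version were normalized on their own. Of 24613 probes, 14898 carried 1 symbol in the platform table, 9715 no symbol and 0 several symbols; gene identifiers tied 14890 to RefSeq genes. Each gene took its brightest probe, and a gene was tested if it was detected (p below 0.05) on at least 2 of the 19 samples without repeat hybridizations, which left 8158 of 12097 genes. Of 3450 genes that passed, 561 had a further kept probe, and for 11 of these that probe moved at least 1 log2 the other way; these 11 are not named here.

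A group-means model over the 19 samples (10 residual degrees of freedom) gave 3 comparisons with limma's moderated variances (eBayes, trend), two-sided, at a Benjamini-Hochberg adjusted p below 0.05 over all genes tested. A signal was called detected where its detection p-value was below 0.05, and such a signal may still lie near background. The number of arrays limits the precision. Some labels call samples biological duplicates, without naming separate animals, so that p-values reflect only the spread among these samples and this spread may be technical. Groups share no replicate numbers. In simulated data of 8158 genes, 100 were moved by 1 log2 and 100 by 2 log2. The first comparison recovered 33 and 75% of these, with 4.43% of calls false and 0 of the wrong sign. Far fewer genes were moved than the 3450 that passed in the data. Independent noise was added to normalized levels, so that normalization and slides were not simulated. These shares may therefore not hold for the data.

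Named genes were the 3 markers, the 16 largest rises and 16 largest falls among genes that passed, did not overlap and reached detection on all arrays of the brighter group, and up to 5 and 3 members of each of 34 gene lists by the same conditions; genes were left out for length, and genes named otherwise are said to be picked after their values were seen or are list members named for comparison. The members, the lists and the rule were chosen with earlier results of these data known. Summed levels of marker lists are sums of linear normalized levels. Promoter windows came from the RefSeq table (GRCm38.p6).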

Additional observations from a re-analysis of the deposited data

How the results depend on the processing

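In the main comparison, under all 19 alternatives run, between 1195 and 2045 genes were higher and between 1362 and 2165 lower in 2-cell controls, each within 1.5 times the reported counts. The split moved with the scaling, to 1703 higher and 1475 lower under 75th percentile scaling and to 1379 and 2047 with series matrix values, and was 1362 and 1833 within slide 3. The lowest counts came with slide as a block (1195 and 1362), the highest within slide 3 with the repeat hybridization (2045 and 2165), and leaving out 1 sample at a time gave 1442 to 1520 higher and 1417 to 1704 lower. The median over all genes moved to 0.31 log2 under 75th percentile scaling and to -0.11 with series matrix values.

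The comparison with cleavage-inhibited embryos was not stable. Its 19 genes became 0 under 75th percentile scaling (253 at an unadjusted p below 0.05, limma), 0 with only the groups compared (275), 47 with detection on every array of a compared group, 6 without fibroblasts, 2 with slide as a block and 29 within slide 3 with the repeat hybridization, a setting chosen after seeing the data. Leaving out 1 sample gave 43 (without cleavage-inhibited 38) to 118 (without cleavage-inhibited 20). The 222 genes between M-phase and interphase zygotes became 128 under 75th percentile scaling, 0 with only the groups compared (1053 unadjusted), 72 without fibroblasts, 33 with slide as a block and, in a setting chosen after seeing the data, 0 within slide 4 (1080 unadjusted). Leaving out 1 sample gave 60 (without M-phase zygote 25) to 589 (without interphase zygote 1). The cause was not tested.

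Of 156 named genes that passed and whose values are given, 144 kept direction and call under all 19 alternatives and 12 lost the call under at least 1: Laptm5, Cdk1, Polr3k, Rpl22, Odf2, Nol9, Chd1, Twist1 and Cd74 with slide as a block, Gtf2b and Pou5f1 within slide 3 and Sbds under 75th percentile scaling. Of 5 genes that did not pass and whose difference or adjusted p is given, Zp3 turned to 0.0298 log2 under 75th percentile scaling, while leaving out 1 sample gave -0.288 (without 2-cell control 23) to 0.0396 (without 2-cell control 22). Oog1, Nanog and Slc2a3 passed under at least 1 alternative. No paired analysis was possible because the groups share no replicate numbers. The signal over background limits genes near the detection limit, for which folds are bounds.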
